A study of Homo sapiens with 10 samples.

Results

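Glycosphingolipid synthesis was followed through 9 genes: A4GALT, UGCG, B4GALT5, B4GALT6, ST3GAL5, B3GALNT1, B4GALNT1, GLA and GM2A. They were selected by their place in the pathway and with the difference between these groups of arrays already known, so their own levels and differences are given as a description and carry no test. Members were found as every non-control probe whose accession belongs to 1 of the 9 genes in RefSeq, which gave 10 probes of 42405 and 9 genes of 35267 names on the array. GM2A had 2 probes and each other gene had 1. In at least 1 of the groups, 7 genes had a probe whose signal was well above background on 3 or more arrays, and for 5 of them this was so on all 10.

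The arrays compared MEG-01 cells, a human megakaryoblastic leukemia line, nucleofected with 200 nM of a miR-1225-3p precursor and the same line given 200 nM of a scrambled negative control precursor, both harvested after 24 hours. Each group had 5 arrays, which the labels call biological replicates. The source label of the control arrays reads as untreated, whereas their titles name a scrambled transfection. RNA came from the whole transfected population of 1 cell line, so cells that took up no precursor were measured too, and with bulk RNA fewer cells carrying a transcript and less of it per cell cannot be told apart.

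Glycosphingolipids are built on ceramide in the Golgi. UGCG adds glucose, B4GALT5 or B4GALT6 adds galactose to give lactosylceramide, and from there the routes part: A4GALT makes Gb3, the Pk blood group antigen and Shiga toxin receptor, which B3GALNT1 extends to globoside, while ST3GAL5 makes the ganglioside GM3, which leads through B4GALNT1 to GM2. Lysosomal GLA removes the outer galactose of Gb3 and is the enzyme lost in Fabry disease, and GM2A presents GM2 to hexosaminidase A. Globoside is the main glycosphingolipid of red cells, and lactosylceramide and GM3 are prominent in platelets.

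The transfected microRNA is shown first because it is the difference between the groups. The capitals mark its seed, bases 2 to 8, and the sequence is that of RefSeq at chr16:2090195-2090216 of GRCh38.p14, minus strand. Matches of the seed in the transcripts of the 9 genes were not tested.
hsa-miR-1225-3p: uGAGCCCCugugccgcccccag

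Sequence upstream of the start was available for 7 of the 9 genes, in 14 windows of 250 bases from RefSeq (GRCh38.p14), 2 of them for A4GALT. The windows of A4GALT, B4GALT5 and GLA are shown because these 3 genes had the clearest differences between the groups, the first pair lower and GLA higher with miR-1225-3p. Of the 2 A4GALT windows, the one richer in G and C is shown. Capitals mark the GC box GGGCGG read on either strand, overlapping matches included. A4GALT lay on the minus strand at chr22:42720871-42721120, B4GALT5 on the minus strand at chr20:49713879-49714128 and GLA on the minus strand at chrX:101407926-101408175.
A4GALT: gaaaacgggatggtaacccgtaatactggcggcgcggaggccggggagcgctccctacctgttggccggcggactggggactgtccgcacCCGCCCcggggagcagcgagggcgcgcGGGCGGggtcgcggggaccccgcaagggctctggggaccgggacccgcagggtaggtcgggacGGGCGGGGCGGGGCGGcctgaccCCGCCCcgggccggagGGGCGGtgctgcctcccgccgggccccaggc
B4GALT5: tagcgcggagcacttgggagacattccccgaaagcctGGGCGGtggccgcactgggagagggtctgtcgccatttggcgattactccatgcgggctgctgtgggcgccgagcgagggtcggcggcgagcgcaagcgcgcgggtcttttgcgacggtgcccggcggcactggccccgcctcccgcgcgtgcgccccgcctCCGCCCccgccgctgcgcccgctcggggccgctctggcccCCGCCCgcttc
GLA: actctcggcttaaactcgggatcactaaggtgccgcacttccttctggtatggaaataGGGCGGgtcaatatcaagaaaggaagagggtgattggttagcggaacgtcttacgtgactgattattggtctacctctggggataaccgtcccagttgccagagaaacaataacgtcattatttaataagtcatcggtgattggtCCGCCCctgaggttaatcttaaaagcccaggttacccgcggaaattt

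The A4GALT window shown, selected as the richer of its 2 in G and C, was 79.2% and held 7 GC boxes. That of B4GALT5 was 75.6% and held 3. GLA differed in composition, at 46.8% with 2 GC boxes and 3 CCAAT boxes (CCAAT, either strand). Of 35116 upstream windows in RefSeq, 42.6% held at least 1 GC box and 13.9% held 3 or more, and 2.93% held 3 or more CCAAT boxes. The median window was 58% G and C. The other A4GALT start had a window of 42% G and C with 1 GC box and 3 CCAAT boxes, so composition differed between starts of 1 gene. UGCG resembled the first pair, at 78.4% with 3 GC boxes. So did ST3GAL5 windows of 76% with 3 GC boxes and of 80% with 1. GM2A, at 60%, and other ST3GAL5 windows, at 52.8% and 52%, also held 3 CCAAT boxes. These traits were thus not particular to the genes that differed between the groups. TATAAA and AGATAA, also read on either strand, were in none of the members' windows and in 10.7% and 9.17% of all windows. CCGGAAG was in 1 window, of B3GALNT1, and in 8.52% of all windows.

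Signals were well above background at 42.0% to 53.8% of spots on the miR-1225-3p arrays and at 43.1% to 61.2% with scrambled, without a saturated spot on any array. The position of each array was measured over all genes on the line from the scrambled mean (0) to the miR-1225-3p mean (1), with the means taken from the other arrays. MiR-1225-3p replicates 1 to 4 lay between 0.87 and 1.60, whereas miR-1225-3p replicate 5 lay at 0.05, inside the scrambled range (-0.09 to 0.18). Differences of the members are given with and without it. The arrays were on 2 slides, with miR-1225-3p replicates 1 and 2 and scrambled replicates 1, 3 and 5 on slide 1. Of 9 megakaryocyte markers, 5 were well above background on all 10 arrays and PF4 on none. FLI1, ITGA2B and NFE2, 3 of the 7 tested, were lower with miR-1225-3p by limma, where 18.1% of all genes were called lower and 17.0% higher. The log2 of the summed signal of these 7 ran from 12.73 to 13.07 with miR-1225-3p and from 13.29 to 13.49 with scrambled. A sum weighs bright probes most, here NFE2 (means 12.39 and 12.82), and does not stand for the whole list. Of all genes, 4.74% had every miR-1225-3p array below the scrambled arrays. The summed signal of 4 tested erythroid markers overlapped, at 17.67 to 18.30 and 18.05 to 18.80, and was mostly that of HBG1 (means 17.96 and 18.34). Of 15 markers of T cells, B cells, monocytes, fibroblasts and epithelium, 5 were above background on all 10 arrays (CD3D, CD79A, CD14, CSF1R and EPCAM) and 5 on none. Of the 8 tested, CD3E and EPCAM were higher with miR-1225-3p, by 1.96 (SE 0.60) and 0.90 (SE 0.20) in the fit by limma, CD3E being above background on 3 miR-1225-3p arrays and 1 scrambled array, and the sums of the 8 overlapped (13.16 to 13.58 and 13.01 to 13.77). The part of these markers in the results below was not tested.

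All member values are normalized log2 signals of 1 probe, averaged over its spots, and signals of different probes are not set against each other. UGCG, the entry step, had signals of 7.26, 7.14, 6.66, 5.98 and 7.22 on miR-1225-3p replicates 1 to 5 and of 6.85, 6.95, 7.24, 7.11 and 7.33 on the scrambled replicates. The groups overlapped, with miR-1225-3p replicates 3 and 4 below every scrambled array. The mean was 6.85 ± 0.54 (SD, n = 5) with miR-1225-3p and 7.10 ± 0.20 with scrambled, a difference of -0.25 (SE 0.25), which was -0.34 without miR-1225-3p replicate 5. Within slide 1 the difference was 0.06. Within slide 2 it was -0.41, or -0.71 when miR-1225-3p replicate 5 was also left out.

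B4GALT5, the main lactosylceramide synthase of many tissues, had signals of 9.10, 9.14, 9.02, 9.09 and 9.63 on the miR-1225-3p arrays and of 10.32, 10.16, 10.07, 9.92 and 9.90 on the scrambled arrays. The groups did not overlap, and all 5 miR-1225-3p arrays were lower. The nearest was miR-1225-3p replicate 5, which stood apart from the other 4. The means were 9.20 ± 0.25 and 10.08 ± 0.17 (SD, n = 5 each), a difference of -0.88 (SE 0.16), so that the scrambled level was 1.84 times the other. Without miR-1225-3p replicate 5 the difference was -0.99, and within slides 1 and 2 it was -0.98 and -0.79. Before normalization the groups overlapped, with intensities of 311.3 to 968.8 with miR-1225-3p and 706.5 to 1760 with scrambled. B4GALT6, the second enzyme for this step, was not well above background on any array, with signals of 2.33 to 2.79, and no fold is given for it.

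A4GALT, which commits lactosylceramide to the globo series, had signals of 9.43, 9.44, 10.25, 9.51 and 11.77 on miR-1225-3p replicates 1 to 5. On scrambled replicates 1 to 5 they were 14.27, 12.46, 11.13, 11.49 and 10.96. Scrambled replicate 1 was far above the rest, miR-1225-3p replicates 1 to 4 were below every scrambled array, and the groups overlapped through miR-1225-3p replicate 5, which exceeded 3 scrambled arrays. Means were 10.08 ± 1.01 and 12.06 ± 1.36 (SD, n = 5 each) and the difference was -1.98 (SE 0.67), a scrambled level 3.95 times that with miR-1225-3p. It was -2.40 (5.29 times) without miR-1225-3p replicate 5, and -1.43 without scrambled replicate 1. Within slide 1 it was -2.68. Within slide 2 it was -1.46, or -2.09 when miR-1225-3p replicate 5 was also left out.

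The A4GALT difference was the largest in size among the members, and so was its spread. Its SD within the scrambled group exceeded that of 99.1% of all genes tested, for which the median SD was 0.25, and its SD within the miR-1225-3p group exceeded that of 88.2% (median 0.44). The spots of the probe differed by at most 0.20 on any array. The pattern was there before normalization: the processed signal, an intensity, was 966.5, 702.2, 777.2, 872.3 and 4108 on the miR-1225-3p arrays and 10600, 4672, 3495, 3215 and 2738 on the scrambled arrays. There too miR-1225-3p replicates 1 to 4 were below every scrambled array, and replicate 5 was above 3 of them.

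**Figure D1:**
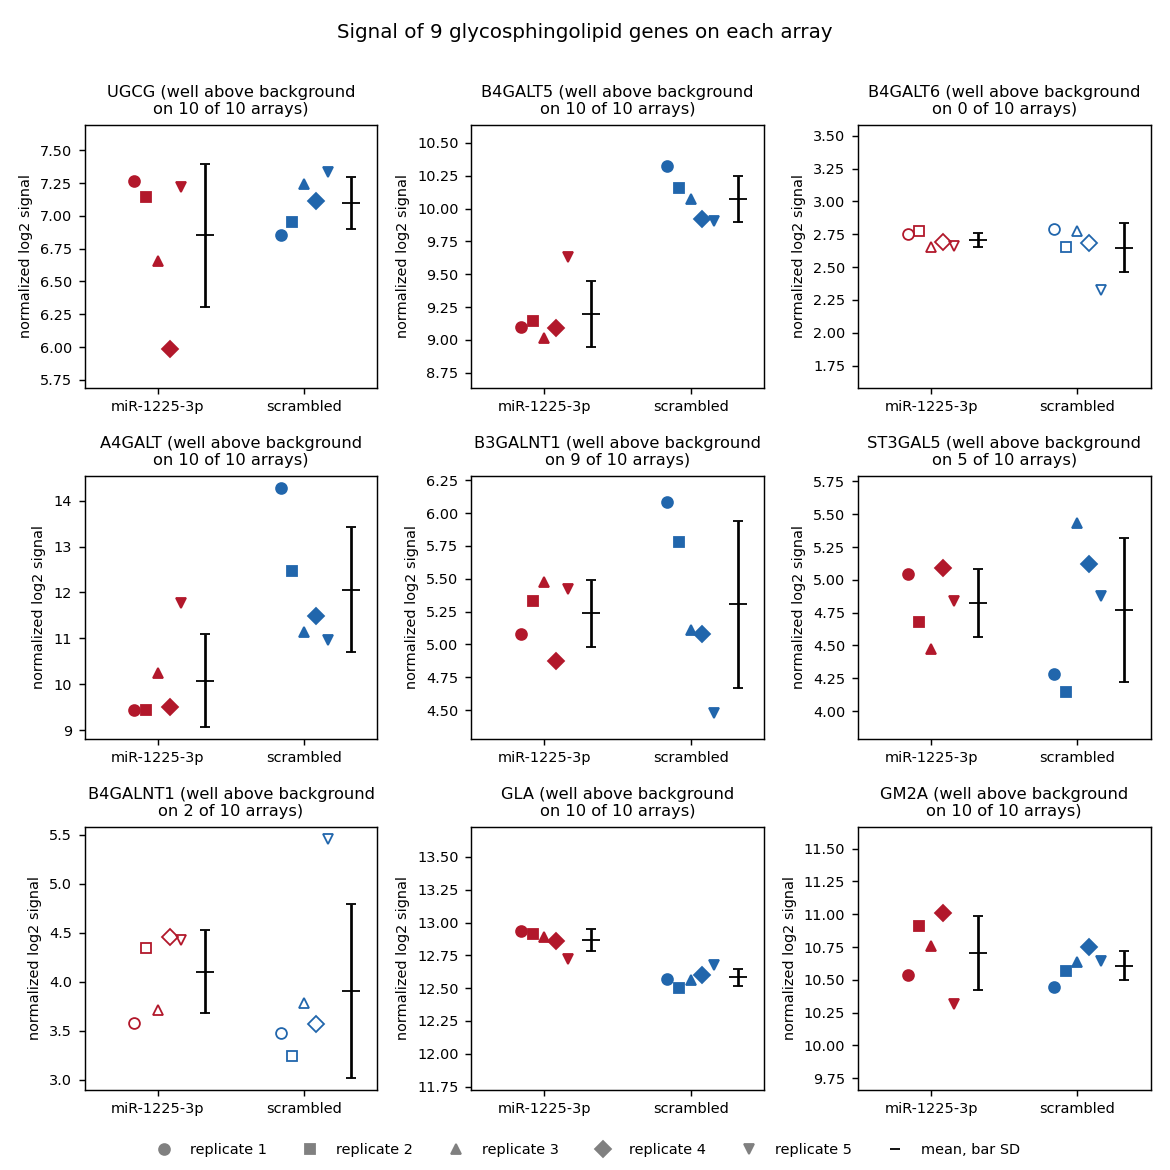
Normalized log2 signal (y axis) of each of the 9 genes on the 5 miR-1225-3p and 5 scrambled arrays, with a marker shape for each replicate and, beside each group, the mean with its SD. Open points are genes without a probe well above background on 3 arrays of either group. B4GALT5 was lower on every miR-1225-3p array and GLA higher, and A4GALT ranged from 10.96 to 14.27 among the scrambled arrays.

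B3GALNT1, the globoside synthase that uses the product of A4GALT, was well above background on 9 arrays. Its signals were 5.08, 5.33, 5.47, 4.87 and 5.42 with miR-1225-3p and 6.09, 5.78, 5.11, 5.08 and 4.47 with scrambled. The miR-1225-3p arrays lay inside the scrambled range, and the difference was -0.07 (SE 0.29), -0.12 without miR-1225-3p replicate 5 and 0.13 without scrambled replicate 1.

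The ganglio series genes were near the limit of measurement. ST3GAL5, the GM3 synthase, was well above background on 2 miR-1225-3p and 3 scrambled arrays, with signals of 5.04, 4.68, 4.47, 5.09 and 4.84 and of 4.28, 4.14, 5.43, 5.12 and 4.88. The groups overlapped throughout, and the difference was 0.05 (SE 0.26), the same to 2 decimals without miR-1225-3p replicate 5, although the spots of the probe differed by up to 1.25. B4GALNT1, the GM2 synthase, was above background on 1 array of each group and had no kept probe. It ranged from 3.58 to 4.46 with miR-1225-3p and from 3.25 to 5.46 with scrambled, where replicate 5 was the highest.

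GLA, the lysosomal alpha-galactosidase, had signals of 12.93, 12.91, 12.89, 12.86 and 12.72 with miR-1225-3p and of 12.57, 12.50, 12.56, 12.60 and 12.68 with scrambled. The groups did not overlap and every miR-1225-3p array was higher, with replicate 5 of each group the closest to the other. The means of 12.86 ± 0.08 and 12.58 ± 0.06 (SD, n = 5 each) differed by 0.28 (SE 0.11), a level 1.22 times that with scrambled. Its SDs were smaller than those of nearly all genes, with 1.60% and 2.87% of genes below them in the miR-1225-3p and scrambled groups. The difference was 0.32 without miR-1225-3p replicate 5, 0.32 within slide 1 and 0.27 within slide 2. Before normalization the groups overlapped, with processed signals of 5188 to 10850 with miR-1225-3p and 3266 to 8916 with scrambled.

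GM2A, the GM2 activator, gave signals of 10.53, 10.91, 10.76, 11.01 and 10.32 with miR-1225-3p and of 10.44, 10.57, 10.64, 10.75 and 10.64 with scrambled for its brighter probe. MiR-1225-3p replicate 5 was the lowest of all 10 and the groups overlapped. The difference was 0.10 (SE 0.16), and 0.19 without that array. Its dimmer probe differed by 0.20 (SE 0.25), with spots up to 2.75 apart on 1 array.

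Read by gene over the arrays, miR-1225-3p replicate 5 was the array of its group nearest to the scrambled mean for A4GALT, B4GALT5 and GLA. For these 3 genes the difference was therefore larger in size without it. It was larger also for UGCG, B3GALNT1 and GM2A, so this was not particular to them. Differences depended on the scaling too. Over all 17400 genes tested the median difference was -0.06, and it was 0.16 after subtraction of each array's 75th percentile and 0.08 after quantile normalization. Under the 75th percentile the A4GALT difference was -1.51, that of B4GALT5 was -0.52 and that of GLA was 0.84. Without any normalization the median of all genes was -0.26. GLA was then 0.41 (SE 0.39), B4GALT5 -0.94 (SE 0.40) and A4GALT -1.93 (SE 0.51). The directions of these 3 held under each scaling, although the SE of GLA without normalization was nearly as large as its difference.

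**Figure D2:**
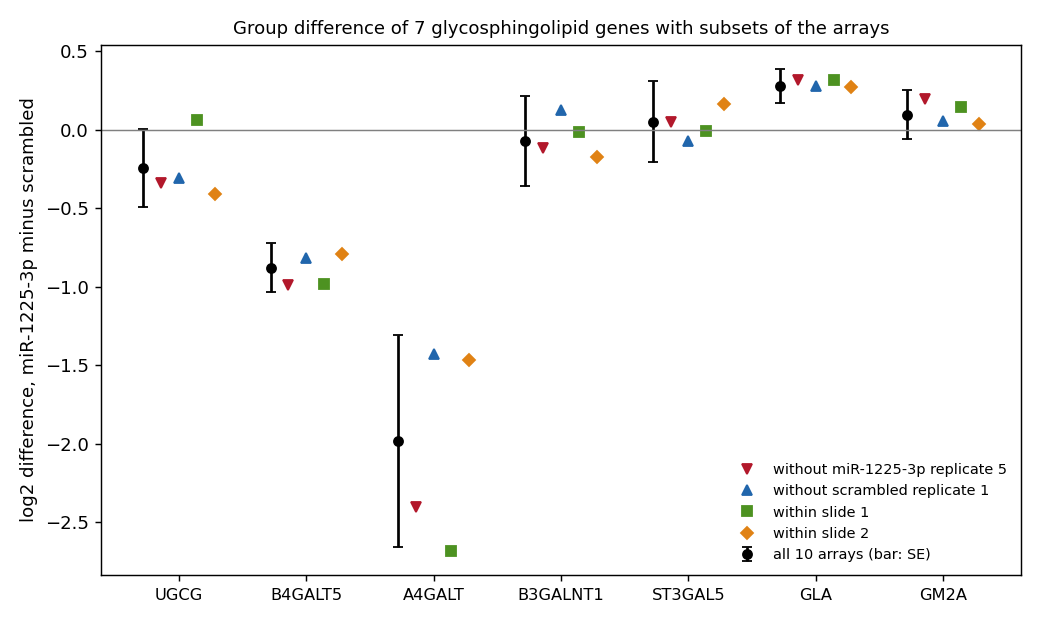
Log2 difference, miR-1225-3p minus scrambled (y axis), for the 7 genes with a kept probe (x axis). Black points use all 10 arrays with the SE of limma, and the other points leave out miR-1225-3p replicate 5, leave out scrambled replicate 1, or keep slide 1 or slide 2. Over these points B4GALT5 ran from -0.99 to -0.79 and A4GALT from -2.68 to -1.43, and GLA from 0.27 to 0.32.

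In the fit over all genes by limma, 6101 of 17400 genes (35.1%) had an adjusted p under 0.05, of which 2952 (17.0%) were higher and 3149 (18.1%) lower with miR-1225-3p. Lower calls were 51.6% of these, against 36.2% after subtraction of the 75th percentile, 40.9% after quantile normalization and 86.3% without normalization. A4GALT and B4GALT5 were among the lower calls, which is 2 members or 28.6% of the 7 tested, and since the members were selected with this contrast known nothing is read from that count. B4GALT5 was the 1 member among the 4.74% of genes with every miR-1225-3p array below the scrambled arrays and GLA the 1 member among the 7.98% with every one above. Without miR-1225-3p replicate 5, 55.4% of genes were called, and 3 members, GLA being the third. A4GALT was no longer called when any 1 of miR-1225-3p replicates 1 to 4 or scrambled replicates 1 to 4 was left out, nor with slide as a block, whereas B4GALT5 remained called in each of these. Under the 75th percentile and under the methods' t-test the 2 members called were B4GALT5 and GLA, without A4GALT.

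The wider pathway was read from 78 other genes in 6 lists, chosen by role, of which 77 were on the array and 66 were tested. In the fit 8 genes rose and 15 fell, which is 34.8% called beside 35.1% of all genes, and the median difference was -0.13 beside -0.06. The calls were therefore about as frequent as in all genes. Under the 75th percentile the split was 12 higher and 11 lower, and under quantile normalization 9 and 11. Without miR-1225-3p replicate 5 it was 12 and 24. A single array left out brought the count as low as 9, which happened without miR-1225-3p replicate 2, scrambled replicate 1 or scrambled replicate 4.

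Of the later steps of the globo, lacto and ganglio series, the longest list, 2 genes were higher and 6 lower of 18 tested (44.4%, beside 35.1% of all genes), with a median of -0.18. In 2 genes every miR-1225-3p array was below the scrambled arrays and in 2 every one was above, beside 4.74% and 7.98% of all genes. The 2 lower ones were ST3GAL2 (-1.86, SE 0.22) and ST3GAL1 (-1.35, SE 0.23), well above background on every array. The largest falls, described next, belonged to other genes. B4GALT1, a galactosyltransferase of lactosamine chains, was well above background on 1 miR-1225-3p array and all 5 scrambled arrays. Its signals were 3.83, 3.79, 3.65, 3.25 and 6.30 with miR-1225-3p and 6.72, 6.46, 6.62, 6.17 and 5.78 with scrambled, so that replicate 5 lay with the scrambled arrays and the other 4 far below them. It fell by 2.19 (SE 0.51, adjusted p = 0.0166 by limma), in a group measured on only 1 array, and differed by -0.58 after normexp background correction. An offset of 50 was added to the intensities there, which by itself shrinks log2 differences of dim probes. Smaller differences after normexp, here and below, are therefore no separate check of size. ST3GAL4, a sialyltransferase, fell by 1.99 (SE 0.60, adjusted p = 0.0311), from 10.17 ± 0.46 to 8.18 ± 1.43 (SD, n = 5 each). FUT4, which adds the fucose of the Lewis X structure, rose by 1.12 (SE 0.27, adjusted p = 0.0172) and ST8SIA5, which lengthens sialic acid chains of gangliosides, by 1.05 (SE 0.29, adjusted p = 0.0248). B3GNT5, which starts the lacto series from lactosylceramide and so competes with A4GALT, differed by -0.09 (SE 0.18, adjusted p = 0.687), and by 0.34 within slide 1 and -0.43 within slide 2. ST8SIA1, the GD3 synthase acting on the product of ST3GAL5, differed by 0.06 (SE 0.24, adjusted p = 0.859).

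Transport genes were split, with 2 higher and 2 lower of 8 tested (50% called, beside 35.1% of all genes). Nothing is read from such shares in lists this short. GLTP, which carries glucosylceramide between membranes, fell by 2.64 (SE 0.55, adjusted p = 0.0140 by limma), a scrambled level of 6.09 ± 0.29 (SD, n = 5) against 3.45 ± 1.33. On the miR-1225-3p arrays it was 2.27, 2.79, 3.48, 3.02 and 5.70, and it was well above background on 1 of them. After normexp the difference was -0.64. SLC35A2, the UDP-galactose transporter that feeds the galactosyltransferases, fell by 0.48 (SE 0.15, adjusted p = 0.0352), a call that was lost under the 75th percentile (-0.20) and under quantile normalization (-0.34). SLC35A3, a transporter of UDP-N-acetylglucosamine, rose by 1.46 (SE 0.29, adjusted p = 0.0138), although its other kept probe differed by 0.07 (SE 0.34). ABCB1, the multidrug transporter that is also described as a flippase of glucosylceramide, rose by 0.65 (SE 0.19, adjusted p = 0.0282), and its other kept probe differed by -0.24 (SE 0.31), so the probes of both risen genes disagreed.

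Of the 16 tested genes of ceramide supply 1 rose and 2 fell (18.8% called, beside 35.1% of all genes). Of 6 tested genes in a list named for competing uses of ceramide 1 rose and 2 fell (50% called). That list also holds sphingomyelinases, which release ceramide and do not compete for it. SMPD1 and SMPD3, both called, are such enzymes. The ceramide synthase CERS6 rose by 0.70 (SE 0.23, adjusted p = 0.0383 by limma), or 1.07 under the 75th percentile, but its other kept probe differed by -0.52 (SE 0.28). CERS4, another ceramide synthase, fell by 1.36 (SE 0.39, adjusted p = 0.0278), but was well above background on 1 miR-1225-3p and 3 scrambled arrays and differed by -0.29 after normexp. ORMDL3, an inhibitor of the first step of sphingolipid synthesis, fell by 0.61 (SE 0.18, adjusted p = 0.0304). Under the 75th percentile it differed by -0.096 and was not called. Ceramide kinase, CERK, fell by 1.66 (SE 0.36, adjusted p = 0.0149) and the lysosomal sphingomyelinase SMPD1 fell by 1.55 (SE 0.52, adjusted p = 0.0415), the latter above background on 2 miR-1225-3p arrays and not called after normexp (-0.52, adjusted p = 0.0749). The neutral sphingomyelinase SMPD3 rose by 0.92 (SE 0.29, adjusted p = 0.0347), was above background on 2 scrambled arrays, and was not called after normexp (0.23) or under the 75th percentile (0.81). The sphingomyelin synthases did not pass, at 0.11 (SE 0.17) for SGMS1 and -0.15 (SE 0.35) for SGMS2.

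Lysosomal breakdown had 2 genes higher and 1 lower of 12 tested (25% called, beside 35.1% of all genes), with a median of -0.01. ASAH1, acid ceramidase, rose by 0.54 (SE 0.13, adjusted p = 0.0181 by limma), or 1.07 under the 75th percentile. PSAP, the precursor of the saposins that serve GLA and other hydrolases, fell by 1.95 (SE 0.60, adjusted p = 0.0325), and the signal of its other probe fell by 2.20 (SE 0.72). HEXA, the alpha subunit that acts with GM2A, differed by -0.60 (SE 0.26, adjusted p = 0.0925), and passed without miR-1225-3p replicate 5 (adjusted p = 0.0030 by limma). In sphingosine metabolism 2 of 6 tested genes fell and none rose (33.3% called, beside 35.1% of all genes). The phosphatase SGPP1 fell by 2.18 (SE 0.71, adjusted p = 0.0383) and the sphingosine kinase SPHK1 by 1.23 (SE 0.35, adjusted p = 0.0274). SGPP1 was above background on 3 miR-1225-3p arrays and differed by -0.78 after normexp, and SPHK1 was not called under the 75th percentile (-0.76).

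**Figure D3:**
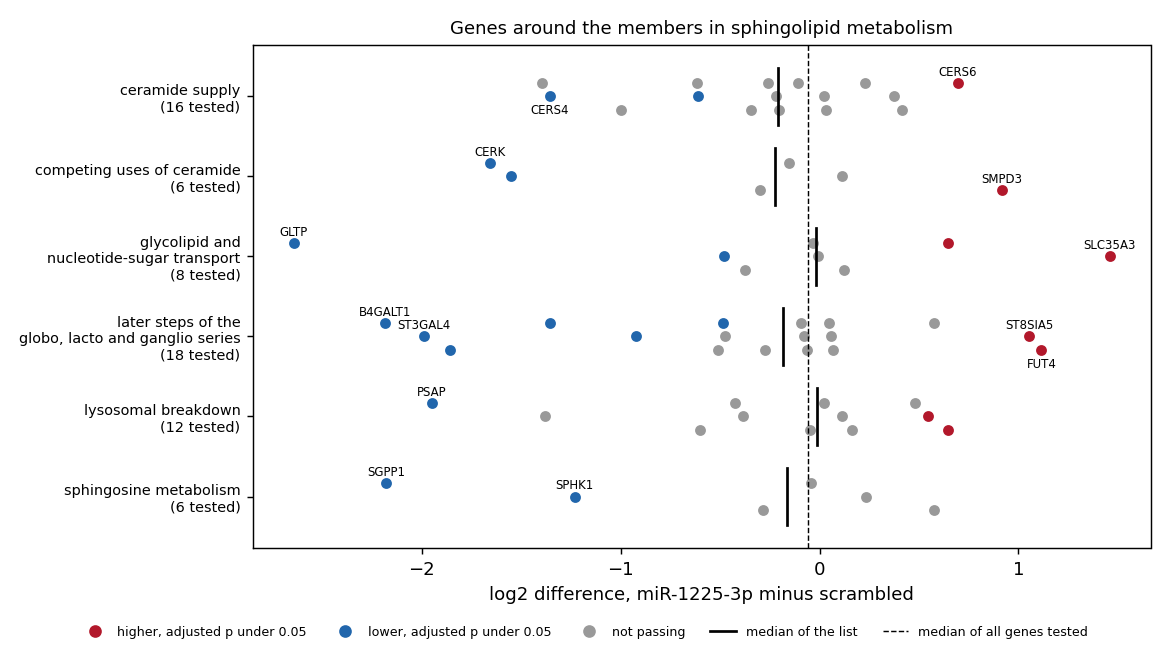
Log2 difference, miR-1225-3p minus scrambled (x axis), of 66 genes in the 6 pathway lists (y axis, spread within a list only to part the points). Red and blue points passed limma at an adjusted p under 0.05, solid bars are list medians and the dashed line is the median of all genes, -0.06. The list medians lay between -0.22 and -0.01, while single genes ran from -2.64 to 1.46.

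Among the pathway genes named by rule 18 were called, and 6 of them (GLTP, B4GALT1, CERK, SLC35A3, FUT4 and ASAH1) stayed called whichever single array was left out. The share of all genes that stayed called in this way was not counted. The other 12 lost the call without at least 1 array. Apart from ST8SIA5, each lost it on leaving out any 1 of at least 6 arrays, and CERS6, SMPD3, ST3GAL4, PSAP and SGPP1 of 8. By the methods' t-test CERS6, CERS4, SMPD3, SMPD1, ST3GAL4, PSAP and SGPP1 were not called. SMPD1 lost it without any array other than miR-1225-3p replicate 5, and ST8SIA5 without miR-1225-3p replicate 4, scrambled replicate 1 or scrambled replicate 4. Without miR-1225-3p replicate 5 the difference was larger in size for 17 of the 18, SLC35A2 being the exception. The matching share over all genes was not counted. That array lay inside the scrambled range over all genes, and without it calls over all genes went from 35.1% to 55.4%. The count of 17 is therefore not read as a trait of these genes. None of the 18 changed direction in any alternative that gave it a value, which was 28 for 9 of them and 27 for the 9 that were not well above background on all 10 arrays. Alternatives that changed only the test or the filter could not turn a direction. None of the alternatives used another kept probe alone, which for CERS6 and ABCB1 had the opposite direction (-0.52 and -0.24). After normexp the dim genes CERK, SLC35A3 and ST8SIA5 differed by -0.52, 0.54 and 0.32, and ABCB1 by 0.41. Within slide 2, which held miR-1225-3p replicate 5, none of them passed, nor did any of the 17400 genes by limma, although 1223 had an unadjusted p under 0.05.

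A4GALT itself was compared, by the root mean square difference of the profiles, each centred on the gene's own mean, with every gene whose signal was well above background throughout. Of these 12010 genes, the nearest were 2 long intergenic RNA probes (0.23 each on the log2 scale), ZNF843, a zinc finger gene (0.27), OGFR, the opioid growth factor receptor (0.29), and HMX1, a homeobox gene (0.29), where the median gene was at 1.46. A gene that hardly varied would also lie far from so variable a profile, so the median is no measure of chance. Each of the 5 had its highest signal on scrambled replicate 1, as A4GALT did. That follows from their selection by profile and is no separate result. OGFR was at 16.88 there and at 14.69 on miR-1225-3p replicate 5, with group means of 12.71 and 14.78. HMX1 was at 16.54 on scrambled replicate 1 and at 14.25 on miR-1225-3p replicate 5, with means of 12.89 and 14.52. ZNF843, a dimmer probe, was at 10.14 and 7.73 on these arrays, with means of 5.86 and 7.62.

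**Figure D4:**
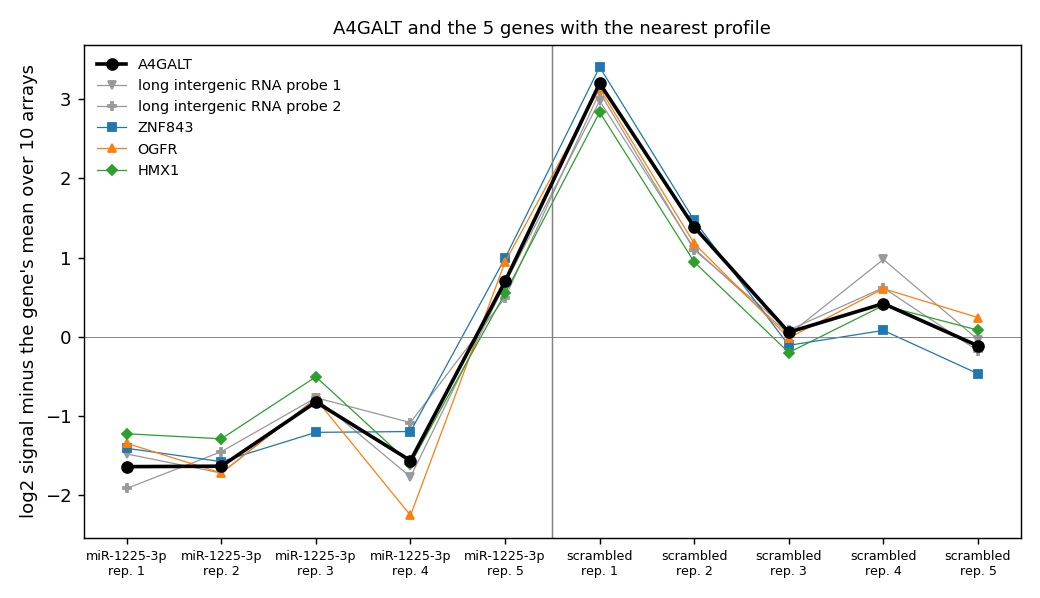
Log2 signal minus the gene's mean over 10 arrays (y axis) on each array (x axis) for A4GALT (black) and the 5 genes with the nearest profile, with lines only to guide the eye. All 6 were highest on scrambled replicate 1, where A4GALT was 3.20 above its mean, and low on miR-1225-3p replicates 1 to 4. The 5 genes were selected for nearness to A4GALT, so the shared shape is given by the selection.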

How the data were processed

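RNA of MEG-01 cells was labelled with Cy3 and hybridized to Agilent SurePrint G3 arrays, 1 sample an array. Scanner output was deposited as made by the authors with Agilent Feature Extraction (10.7.3.1, per the labels), in which the processed signal, the median signal and its background are intensity values, the first already background-corrected, with flags for spots well above background, saturated or outlying. The authors also deposited a table of normalized log2 values of 29271 probes. The methods name a log2 transform, cyclic loess and the difference from a geometric mean of controls, but that table had medians between 4.77 and 5.15 and a slope near 1 against the values here, and what was subtracted from it stays unknown. Correlation per array after centring each probe was 0.981 to 0.998.

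Log2 processed signals of 58717 non-control spots were normalized by cyclic loess (limma 3.58.1, R 4.3.3, fast method, 3 iterations), outlier spots were set missing (92 missing values among kept probes) and each probe took the mean of its spots. Kept were the 20675 probes well above background on 3 or more of the 5 arrays in 1 group or both. The brightest kept probe stood for a gene, which left 17400 genes. The files held accessions and no symbols, and 24910 of 42405 probes were named through the RefSeq table of GRCh38.p14. No coordinates of probes are given, as the array follows another build. Groups were compared with limma and Benjamini-Hochberg adjustment at 0.05, tested on simulated data. The precision of every value is limited by 5 arrays a group, and p-values measure the spread between arrays that the labels call biological replicates.

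The members and lists were chosen with earlier results of these data known, and no pattern shown before is taken as independent support. Genes named are the members, the 2 largest rises and 2 largest falls among the called genes of each pathway list, the neighbours B3GNT5, ST8SIA1 and HEXA, and the 5 profiles nearest to A4GALT. Some genes that this rule covers are left out and not reported here. SGMS1, SGMS2, ST3GAL1 and ST3GAL2 lie outside this rule and were named after their values were seen. Replicate numbers did not pair the arrays (correlation of deviations -0.402 to 0.071). Alternatives covered the normalization, the source of values, background correction by normexp (offset 50), the filter, flagged spots, the probe, the test, slide and replicate blocks, and leaving out each array. The platelet part of the study was not analysed here.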

Additional observations from a re-analysis of the deposited data

Results flagged for a closer look

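In 56 groups of 5 arrays, those of the members and the pathway genes named by rule, the highest or lowest array was checked. The check was of its distance from the nearest other array relative to the range of the group. A far value was found in 2 groups, where chance at about 1 in 20 gives 2.8. Both were on miR-1225-3p replicate 5. B4GALT5 was at 9.63 there, and the next miR-1225-3p array was at 9.14. B4GALT1 was at 6.30, and the next was at 3.83.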

How the results depend on the processing

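Over 28 alternatives the A4GALT difference kept its direction, at -2.68 to -1.43, as did B4GALT5 (-0.99 to -0.52) and GLA (0.18 to 0.84). Some of these, such as the methods' t-test or no filter on dim probes, change the error or the calls but not the difference. They could not turn a direction. The counts moved more. Of all genes, 1269 were called without normalization, 3411 with no filter on dim probes and 11766 with array weights, against 6101. For the members, against 2, the count was 1 without normalization (A4GALT), with no filter, with slide as a block and within slide 1 (B4GALT5 in these 3). For the pathway, against 23, it was 5 without normalization, 9 with no filter, 15 among genes above background on all 10 arrays, 40 with array weights and 14 within slide 1. Within slide 2 and with the replicate block, the limma calls were 0 genes, 0 members and 0 pathway genes, with 1223 and 7476 genes, 0 and 2 members, and 4 and 28 pathway genes at an unadjusted p under 0.05. The replicate block is given only for completeness, since the numbers did not pair the arrays. Leaving out each array in turn gave 2141 to 9632 genes, 1 to 3 members and 9 to 36 pathway genes. The count of genes fell by more than 1.5 times without any 1 of miR-1225-3p replicates 2, 3 and 4 or scrambled replicates 1 to 4, and rose by as much without miR-1225-3p replicate 5. An alternative chosen after seeing the data, within slide 2 without miR-1225-3p replicate 5, gave 5602 genes, 2 members (A4GALT and B4GALT5) and 17 pathway genes. The causes were not tested.

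Of 578 comparisons for the 21 pathway genes named by rule, 375 kept direction and side of the threshold, 187 lost the call, 3 gained it (HEXA) and 13 turned, in 2 genes near 0. B3GNT5 turned to 0.22 under the 75th percentile, 0.027 under quantile normalization, 0.078 with array weights and 0.34 within slide 1, and to 0.0041 without miR-1225-3p replicate 4. ST8SIA1 turned to -0.060 under the 75th percentile, -0.48 without normalization, -0.027 with the authors' values and -0.34 within slide 1, and ran from -0.088 to 0.21 with 1 array left out. B3GNT5 ran from -0.22 to 0.0041 with 1 array left out. Signal over background limits ST3GAL5 and B3GALNT1, and B4GALT6 and B4GALNT1 could not be compared.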
